A study of Danio rerio with 6 samples.

Results

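The genes followed here act early in the paraxial mesoderm, the tissue beside the notochord that forms the somites, and in the first steps of muscle formation. They were set by Ensembl identifier and chromosome. The rule itself used no measured value, but the genes were chosen with earlier results of these data known. Of 5 genes named, 4 had the expected chromosome in the counts and were kept, out of 32266 genes listed. These are *myod1* (ENSDARG00000030110), *myf5* (ENSDARG00000007277), *tbx16* (ENSDARG00000007329) and *tbxta* (ENSDARG00000101576). *msgn1* (ENSDARG00000070546) was expected on chromosome 20 but is listed on chromosome 4, and is therefore not counted as a member. Its values are given beside the others for comparison.

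RNA was sequenced from zebrafish cells sorted for the *pax8*:DsRed reporter, a transgene (Gt(pax8:DsRedx), carried heterozygously in both groups on the AB background) that marks the nephric anlagen and the OEPD, the otic-epibranchial progenitor domain. The 3 wild-type samples (wt) came from embryos without morpholino. The 3 morphant samples (dlx3p4_MO) came from embryos injected at the one-cell stage with antisense morpholinos against *dlx3b* and *dlx4b*. All embryos were taken at 6 to 9 somites, and replicates are numbered 1 to 3 in each group. No control injection is described for the wild type, so that an effect of injection and an effect of Dlx3b/4b loss cannot be told apart.

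Paraxial mesoderm arises from progenitors in the gastrula margin and later in the tailbud. T-box transcription factors act at the top of this sequence. *tbxta*, the zebrafish Brachyury gene known as *no tail*, is required for the notochord and for mesoderm of the tail. *tbx16*, known as *spadetail*, is required for cells to move into the trunk paraxial mesoderm. *msgn1* encodes a bHLH factor that promotes the exit of tailbud progenitors towards the presomitic mesoderm. *myf5* and *myod1* encode bHLH factors that commit mesodermal cells to the muscle lineage. None of these genes is a defining gene of the otic or nephric primordium. The samples are bulk RNA of sorted cells, and fewer cells of a type and less RNA per cell cannot be told apart in them.

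In the counts table *myod1* is listed on chromosome 25, from 30843777 to 30846017 on the minus strand, with 3 exons covering 1772 bp. *myf5* is on chromosome 4, from 22020253 to 22024132 on the plus strand, with 3 exons covering 1415 bp. *tbx16* is on chromosome 8, from 51747378 to 51767075 on the minus strand, and its 9 exons cover 4949 bp. *tbxta* is on chromosome 19, from 14325345 to 14329397 on the minus strand, with 8 exons covering 2216 bp. *msgn1* is on chromosome 4, from 292588 to 294558 on the plus strand, as 1 exon of 1971 bp. The counts cover the exons of each gene, and 0 other genes shared exon bases with any of the 5. The sources disagree on the genome build, so that these positions hold for the table as deposited.

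Total counts on genes ranged from 23846555 to 28480101 per sample, at which 3 counts are worth 0.105 to 0.126 CPM before TMM factors. CPM are counts scaled to a library total of 1000000, and all other CPM values given here include TMM factors. Such floors cover counting error only. The sorted cells contained *pax2a* at 523 to 744 CPM and *pax8*, the reporter's own gene, at 227 to 415 CPM in every sample. In order of replicate number, *dlx3b* RNA was at 48.0, 144 and 30.2 CPM in wild type and at 51.2, 78.7 and 180 CPM in the morphants, and all values below are given in this order. *dlx4b* RNA ranged from 3.84 to 25.2 CPM in wild type and from 4.26 to 23.9 CPM in morphants. Morpholinos act on translation or splicing, and these RNA levels do not check the knockdown. Wild-type replicate 2 stood apart, with 2182 CPM summed over 7 epidermal markers against 850 to 1501 CPM in the other 5 samples. It also had the highest sum of 15 OEPD markers, 2466 against 1442 to 1743 CPM, with the otic gene *sox9b* at 437 CPM against 106 and 89.5 CPM in the other wild-type samples. Its neural marker sum of 231 CPM was the highest as well (65.9 to 217 CPM elsewhere), and it had 4.63% of counts on mitochondrial genes against 2.02 to 3.09%. Morphant replicate 1 had the lowest neural sum, 65.9 CPM, against 119 to 231 CPM in the other samples. The epidermal sum of morphant replicate 1 was also the lowest, at 850 against 908 to 2182 CPM, while its OEPD sum of 1622 CPM was not. Morphant replicate 3 had the highest sums after wild-type replicate 2, at 1501 CPM for epidermal, 1743 CPM for OEPD and 217 CPM for neural markers. Its share of mitochondrial counts was the lowest, 2.02%.

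The T-box genes were at higher levels per length than the muscle genes in the sorted cells. To compare levels between genes, CPM were divided by the exon length in kilobases. On this scale *tbxta* had the highest wild-type level, 34.99 ± 3.81 CPM per kb (SD, n = 3), followed by *tbx16* at 21.9 ± 4.76. *msgn1* followed at 14.05 ± 1.94 CPM per kb, then *myf5* at 5.14 ± 1.39 and *myod1* at 0.871 ± 0.218. No neighbours in this order overlapped between wild-type samples. In the morphants the order of the mean levels was the same, with *tbxta* at 44.4 ± 5.44 CPM per kb, *tbx16* at 32.7 ± 7.59, *msgn1* at 12.6 ± 3.26, *myf5* at 5.96 ± 1.19 and *myod1* at 1.17 ± 0.596. There the samples of *tbxta* and *tbx16* overlapped, since the lowest *tbxta* level was 38.9 and the highest *tbx16* level was 40.8 CPM per kb.

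**Figure D1:**
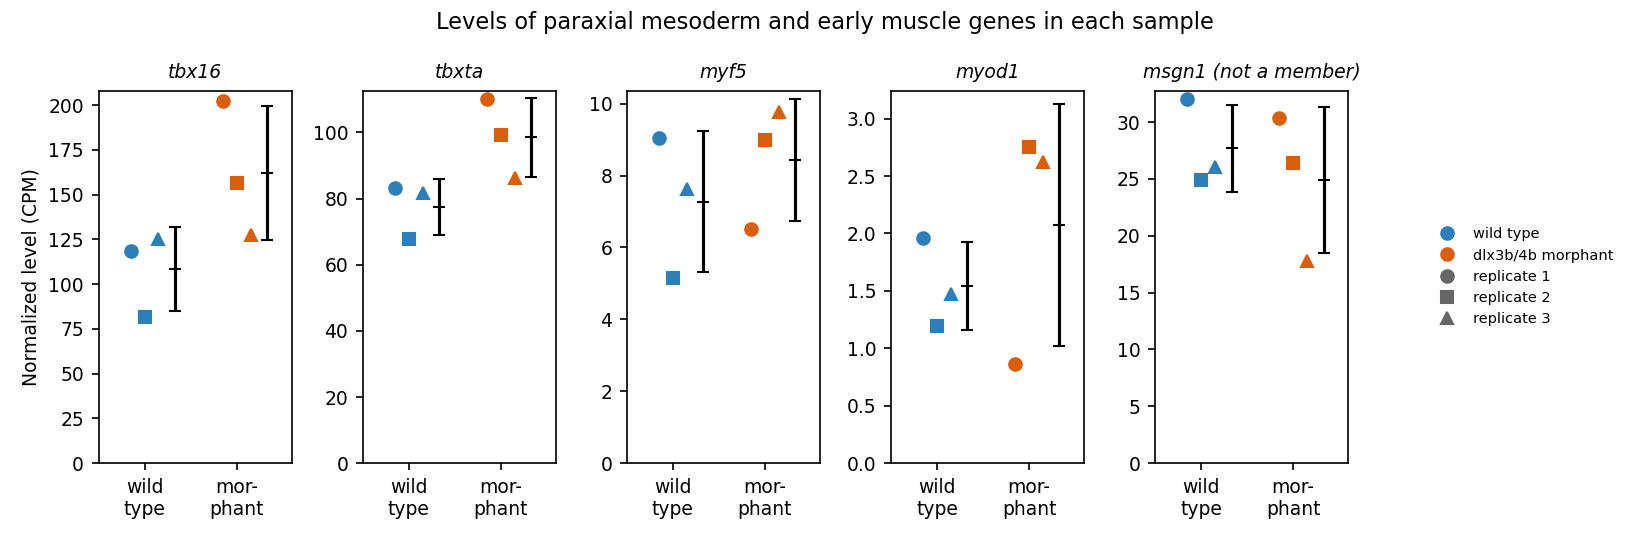
Levels of 4 paraxial mesoderm and muscle genes and of *msgn1* in each sample, as CPM on linear axes that start at 0. Points are single samples, with the replicate number as the symbol, and the bar beside them is the group mean ± SD (n = 3). All morphant points of *tbx16* and *tbxta* lie above all wild-type points, whereas the groups overlap for the other genes.

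*tbx16* was the 1 member called in the main fit, at a higher level in the morphants. Its level was 118, 81.4 and 125 CPM in the wild-type samples (3321, 2178 and 3651 counts). In morphant replicates 1, 2 and 3 it was 202, 156 and 128 CPM (5174, 4153 and 3023 counts). Each morphant sample was above each wild-type sample, but morphant replicate 3 was close to wild-type replicates 1 and 3. The difference between same-numbered samples was 0.77, 0.94 and 0.027 on the log2 CPM scale. The fitted log2 fold change of morphant against wild type was 0.58 ± 0.16 (SE), a fold of 1.497, with an adjusted p of 0.0744 (edgeR, quasi-likelihood F test, Benjamini-Hochberg over 17526 genes). A gene is called at an adjusted p below 0.1, the study's threshold. The call did not hold in every fit that left out a single sample. It was lost without wild-type replicate 1 or 2 (both adjusted p = 0.149, edgeR) and without morphant replicate 1 (0.283) or 2 (0.196). These fits also had fewer samples and no replicate block. With all 6 samples and no block *tbx16* was still called (adjusted p = 0.0942, edgeR). Whether the lower number of samples or the sample left out lost the call was not tested. The log2 fold change was 0.65 without wild-type replicate 1 and 0.61 without morphant replicate 2. It was 0.39 without morphant replicate 1 and 0.42 without wild-type replicate 2, the sample with the high otic, epidermal and mitochondrial content.

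*tbxta* lay higher in the morphants as well, by a smaller difference that did not pass the threshold. Wild-type replicates 1, 2 and 3 had 83.2, 67.8 and 81.5 CPM (2336, 1815 and 2376 counts). The morphants had 110, 99.1 and 86.1 CPM (2822, 2631 and 2040 counts). As for *tbx16*, no samples overlapped between groups, wild-type replicate 2 was the lowest, and morphant replicate 3 was the lowest morphant. The log2 fold change was 0.34 ± 0.12 (SE), a fold of 1.27, with an adjusted p of 0.128 in edgeR. Without morphant replicate 3 it was 0.44 and was called, at an adjusted p of 0.0832. The other samples left out singly did not bring a call.

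The muscle determination genes did not differ beyond the spread of the replicates. *myf5* was at 9.05, 5.16 and 7.62 CPM in the wild-type samples (254, 138 and 222 counts) and at 6.52, 9.002 and 9.75 CPM in the morphants (167, 239 and 231 counts). The groups overlapped, with wild-type replicate 2 and morphant replicate 1 the lowest samples. Its log2 fold change was 0.23 ± 0.26 (SE), with an adjusted p of 0.653 in edgeR.

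*myod1* rested on few counts, 22 to 73 per sample. It was at 1.96, 1.20 and 1.48 CPM in the wild-type samples (55, 32 and 43 counts) and at 0.859, 2.75 and 2.62 CPM in the morphants (22, 73 and 62). The morphants held both the lowest and the highest samples, and morphant replicate 1, the lowest here, was the highest sample for *tbx16* and *tbxta*. The log2 fold change was 0.33 ± 0.49 (SE), with an adjusted p of 0.743 in edgeR. The error leaves room for a fold of 0.892 to 1.77 within 1 SE.

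*msgn1*, beside the members, was not called. Its level was 32.1, 24.9 and 26.1 CPM in the wild-type samples (900, 667 and 760 counts) and 30.4, 26.4 and 17.8 CPM in the morphants (778, 701 and 422 counts). Morphant replicate 3 alone lay below the wild-type range. The log2 fold change was −0.18 ± 0.15 (SE), with an adjusted p of 0.531 in edgeR. Without morphant replicate 3 it was 0.045.

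Of the 4 members, 1 was called higher, where 4.85% of all tested genes were called higher. None was called lower (0 by edgeR, 0 at an unadjusted p under 0.05 and 0 by DESeq2), where 6.05% of all tested genes were. In either direction 10.9% of the tested genes were called, 1911 in all. The samples of the groups did not overlap, with the morphants higher, for 2 of the 4 members, where this held for 15.1% of all tested genes. These 2, *tbx16* and *tbxta*, had a Pearson r of 0.99 over the 6 samples, so that they are not independent observations. No test was run over so few members. The median log2 fold change over all tested genes was −0.013.

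**Figure D2:**
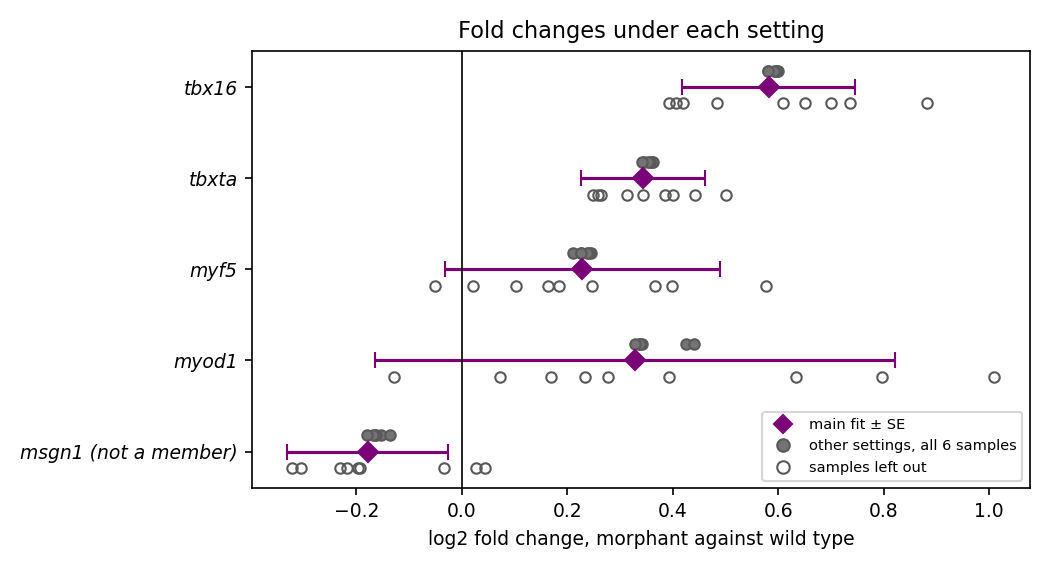
Log2 fold changes of morphant against wild type. Diamonds are the main edgeR values with bars of 1 SE, filled circles are 6 other settings on all 6 samples, and open circles are 9 fits with samples left out. *tbx16* stays between 0.39 and 0.88 and *tbxta* between 0.25 and 0.50, whereas *myf5*, *myod1* and *msgn1* have points on both sides of 0.

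Ratios between 2 genes of the same sample do not depend on the library total. The log2 ratio of *msgn1* to *tbx16* was −1.88, −1.70 and −2.26 in wild type and −2.73, −2.56 and −2.84 in the morphants. Each morphant sample was below each wild-type sample, with a difference of means of −0.76. The exact two-sided permutation test gave p = 0.1, the smallest that 3 against 3 samples allow, and 0.3 after Benjamini-Hochberg adjustment over the 3 ratios compared. The ratio of *tbxta* to *tbx16* was −0.46 ± 0.18 (SD, n = 3) in wild type and −0.70 ± 0.16 in morphants on the log2 scale, with overlapping samples (exact permutation p = 0.2, adjusted 0.3). The ratio of *myod1* to *myf5* was −2.17 ± 0.13 in wild type and −2.12 ± 0.61 in morphants on the log2 scale (exact permutation p = 1, adjusted 1). The morphant SD of this last ratio came mostly from morphant replicate 1, at −2.82 against −1.68 and −1.87 in replicates 2 and 3.

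**Figure D3:**
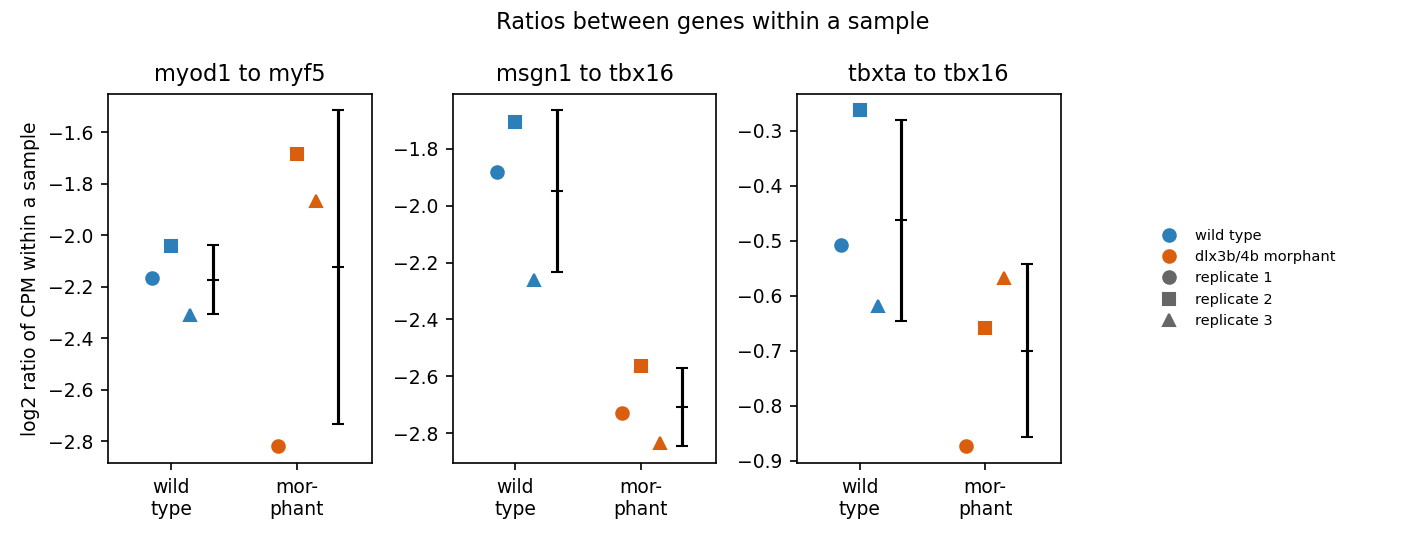
Log2 ratios between 2 genes of the same sample, with a separate axis range for each ratio. Points are samples and bars are group means ± SD (n = 3). The *msgn1* to *tbx16* ratio lies between −2.26 and −1.70 in wild type and between −2.84 and −2.56 in morphants, while the groups overlap for the other ratios.

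The members varied in 2 pairs across the samples. *tbx16* and *tbxta* had a Pearson r of 0.99 and a Spearman rho of 0.94 over 6 samples of log2 CPM, and r was 0.98 for the deviations from the group means. *myf5* and *myod1* had an r of 0.82 and a rho of 0.77, and 0.81 for the deviations. Between the pairs r ranged from −0.085 (*myod1* with *tbx16*) to 0.35 (*myf5* with *tbxta*). *msgn1*, beside the members, had an r of 0.25 with *tbx16* and with *tbxta*. For the deviations from the group means its r was 0.76 with *tbx16* and 0.86 with *tbxta*. These are descriptions over 6 samples that share 2 groups and the standing apart of wild-type replicate 2. *tbxta* ranked 36 of the other 17525 tested genes in likeness to *tbx16*, with 0.20% of genes more like it, and *myf5* ranked 218 in likeness to *myod1*, with 1.24% more like it.

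**Figure D4:**
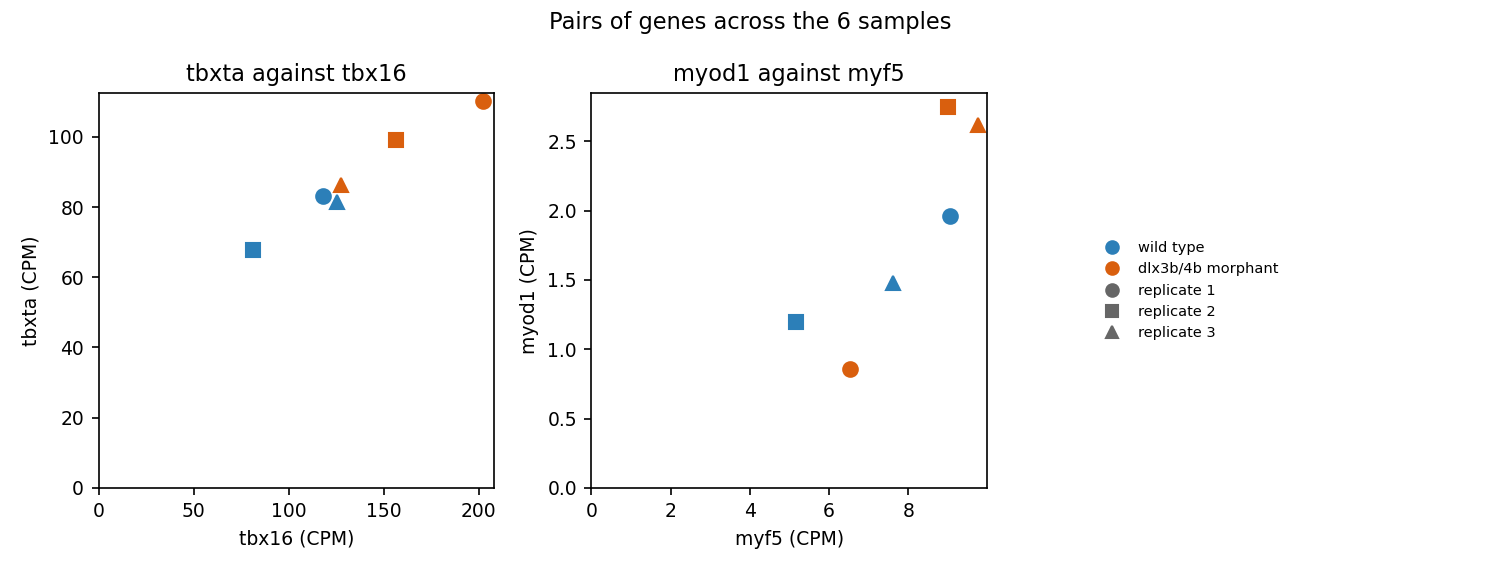
Levels of *tbxta* against *tbx16* and of *myod1* against *myf5* in each of the 6 samples, in CPM on axes that start at 0. Colours are the groups and symbols the replicate numbers. *tbx16* and *tbxta* rank the samples nearly alike, from wild-type replicate 2 at the lower end to morphant replicate 1 at the upper end, whereas morphant replicate 1 is the lowest sample for *myod1*.

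Among 11393 tested genes with a mean count of at least 100, the gene whose log2 CPM followed *myf5* most closely was *tbx6* (r = 0.997 over 6 samples). This T-box gene is required for somite segmentation in zebrafish. The highest r of 11393 over 6 samples was 0.98 to 0.999 for all of the 5 genes followed. Such a value does not show shared regulation. *tbx6* was at 20.1, 8.30 and 15.9 CPM in the wild-type samples and at 12.4, 19.2 and 21.7 CPM in the morphants. It had the same sample order as *myf5*, and was not called (log2 fold change 0.32 ± 0.30 (SE), adjusted p = 0.582, edgeR). The next were *taf4a* and *PPARD*, both at r = 0.97. Closest to *myod1* was *elavl3*, a gene of newly formed neurons, at r = 0.98. *elavl3* was at 10.1, 5.83 and 7.07 CPM in wild type and at 4.80, 17.7 and 15.5 CPM in the morphants. *AAAS* (r = 0.98) and *PLEKHO1* (r = 0.97) followed.

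For *tbx16* the closest were *GIGYF1* (ENSDARG00000098932), *RBPMS2* and *AHCTF1*, all at r of about 0.998. For *tbxta* they were *PXN* (ENSDARG00000060766, r = 0.999), a gene without a given name (ENSDARG00000063361, 0.998) and *SMO* (0.997). *SMO* encodes the transducer of Hedgehog signals. For *msgn1* they were *CEP85* (r = 0.99), *CLASRP* and *CUL1* (both 0.98). Of these genes *PXN*, which encodes the focal adhesion protein paxillin, was called (log2 fold change 0.92, adjusted p = 0.0627, edgeR). Symbols in capitals are given as in the name table.

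Genes that act with the members in the tailbud and the presomitic mesoderm were followed as a list of 27 symbols, of which 23 matched and 22 passed the filter on low counts. edgeR called 4 of the 22 higher and 2 lower (4.85% and 6.05% over all tested genes), and 16 did not pass, with a median log2 fold change of 0.24. With samples left out, 1 to 7 were called higher (1 without both replicates numbered 1 and 7 without both numbered 3) and 0 to 2 lower. The count called lower was 0 without wild-type replicate 1, morphant replicate 2, both replicates numbered 1 or both numbered 2. *cdx4*, a caudal-type homeobox gene that patterns the posterior body, rose from 155, 134 and 134 CPM to 305, 262 and 273 CPM (fold 1.99, log2 fold change 0.99 ± 0.09 (SE), adjusted p = 0.00197). It was called in all 15 alternatives, as were *pax3a* and *aldh1a2* below.

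*hes6*, a Hairy-related gene of the segmentation clock that neural progenitors also use, rose from 158, 132 and 148 CPM to 248, 189 and 189 CPM. The ventral homeobox gene *ved* and the even-skipped gene *eve1* rose by folds of 1.75 and 1.83, from wild-type means of 9.06 and 5.45 CPM. The Delta ligand gene *dlc*, which also acts outside the mesoderm, fell from 187, 183 and 176.6 CPM to 147, 145 and 139 CPM. *ripply2*, which sets segment boundaries, fell from 7.94, 7.10 and 9.09 CPM to 5.55, 4.22 and 4.94 CPM. In these 6 genes, all of them called, no samples overlapped between groups. Of all 22 tested genes of the list, 7 had every morphant sample higher, where this held for 15.1% of all tested genes. The list had 2 genes with every morphant sample lower, a direction for which the share over all genes was not computed. The calls of *hes6* and *ved* were lost in 1 of 15 alternatives, without both replicates numbered 1, that of *eve1* or *dlc* in 4 and that of *ripply2* in 7.

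The members' closest relatives in the list were not called. *tbx16l*, a T-box gene named for its likeness to *tbx16*, was at 31.6, 25.7 and 31.6 CPM in wild type and at 42.9, 39.9 and 31.7 CPM in the morphants (log2 fold change 0.36 ± 0.15 (SE), adjusted p = 0.181, edgeR). Its groups did not overlap, and morphant replicate 3 again lay next to the wild type. *tbxtb*, the second zebrafish Brachyury gene, had a mean of 28.1 ± 7.54 CPM in wild type and 28.1 ± 8.26 CPM in morphants (SD, n = 3). These genes were looked up after the list's values had been seen.

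The somite and dermomyotome list had 12 tested genes of 15, with 3 called higher (4.85% over all tested genes) and 0 lower (6.05%; 1 lower gene had an unadjusted p under 0.05, and DESeq2 called 0 lower). Of the 12 genes, 9 were not called, and 6 had a positive log2 fold change. The list's median log2 fold change was −0.096, and with samples left out it ranged from −0.29 (without both replicates numbered 3) to 0.23 (without both numbered 1). *aldh1a2*, which encodes a retinoic acid synthesis enzyme of somites and other mesoderm, rose from 51.8, 29.8 and 43.7 CPM to 137, 120 and 138 CPM (fold 3.23, log2 fold change 1.69 ± 0.13 (SE), adjusted p = 9.5e-04, edgeR). The paper reports that *in situ* hybridization for *aldh1a2*, in offspring of carriers of a deletion of the targeted genes, did not bear out a rise. It presumes that the rise was too moderate to be seen over the endogenous expression. *pax3a*, a paired-box gene of the dermomyotome and the neural crest, rose from 8.62, 8.04 and 6.28 CPM to 19.5, 23.1 and 22.97 CPM (fold 2.87, adjusted p = 0.00442). *twist1a*, a bHLH gene of mesenchyme, rose from 13.7, 8.71 and 10.3 CPM to 15.9, 19.02 and 16.2 CPM (adjusted p = 0.0877), a call lost in 7 of 15 alternatives, among them without wild-type replicate 2 (0.109). Without both replicates numbered 3 the list also had 3 genes called lower, and 1 without wild-type replicate 3 or with no filter on low counts. *meox1*, a homeobox gene of somites, was at 75.4 ± 7.58 CPM in wild type and 81.7 ± 15.3 CPM in morphants (adjusted p = 0.643). Of the genes lying lower, *foxc1a* had the lowest p. It was at 32.8, 32.7 and 22.9 CPM in wild type and at 24.3, 22.4 and 19.5 CPM in the morphants. Its log2 fold change was −0.41 ± 0.13 (SE), with an adjusted p of 0.108 in edgeR. *epha4a* followed at −0.72 ± 0.32 (SE, adjusted p = 0.226, edgeR), and the groups overlapped for both genes.

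The genes of muscle differentiation were divided. Of 22 matched symbols, 12 passed the filter on low counts and 10 did not. Among those that passed were *prdm1a*, a regulator of slow muscle that other tissues also express, at 58.7 to 78.9 CPM, the chaperone gene *unc45b* at 16.2 to 39.8 CPM and *mef2ca* at 11.01 to 21.004 CPM. Among those that did not were the later myogenic factors. *myog*, the myogenic factor that follows *myod1* and *myf5*, ranged from 0 to 0.753 CPM, and *myf6* had at most 2 counts in a sample. The cell adhesion gene *cdh15* had at most 4 counts and the myoblast fusion gene *mymk* at most 5. Of the 12 genes tested, edgeR called 0 higher (0 at an unadjusted p under 0.05 and higher, and 0 by DESeq2) and 1 lower (4.85% and 6.05% over all tested genes), with a median log2 fold change of −0.041. The gene that fell was *mef2cb*, which also acts in heart and vessel precursors, from 13.3, 12.7 and 15.6 CPM to 6.48, 8.63 and 7.43 CPM (fold 0.541, adjusted p = 0.0309, edgeR). Its call was lost in 1 of 15 alternatives, without both replicates numbered 1 (0.26), and without wild-type replicate 2 the list had 2 genes lower. The cardiac and skeletal actin gene *actc1b* was at 3.20 to 4.69 CPM in all samples, with overlapping groups.

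The notochord and floor plate list, followed because *tbxta* also marks the notochord, had 10 of 10 genes tested. edgeR called 0 higher (1 higher gene had an unadjusted p under 0.05) and 1 lower (4.85% and 6.05% over all tested genes), and the median log2 fold change was −0.13. With no replicate block, with no filter on low counts or without wild-type replicate 2, edgeR called 1 higher. DESeq2 without the block also called 1 higher. With samples left out the median ranged from −0.35 (without both replicates numbered 3) to 0.53 (without wild-type replicate 2). *foxj1a*, a regulator of motile cilia in the floor plate and other ciliated tissues, fell from 254, 227 and 294 CPM to 149, 157 and 140 CPM (log2 fold change −0.79 ± 0.12 (SE), adjusted p = 0.00963, edgeR). This call too was lost in 1 of 15 alternatives, without both replicates numbered 1 (0.128). *noto*, a defining gene of the notochord, was at 0.343 to 2.62 CPM, and *shha* at 1.41 to 7.44 CPM, with overlapping groups. Of the genes lying higher, *foxa* had the lowest p. It was at 4.42, 6.58 and 4.84 CPM in wild type and at 7.89, 7.72 and 9.12 CPM in the morphants, without overlap. Its log2 fold change was 0.66 ± 0.23 (SE), with an adjusted p of 0.129 in edgeR. Of the 10 genes, 4 had a positive log2 fold change.

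**Figure D5:**
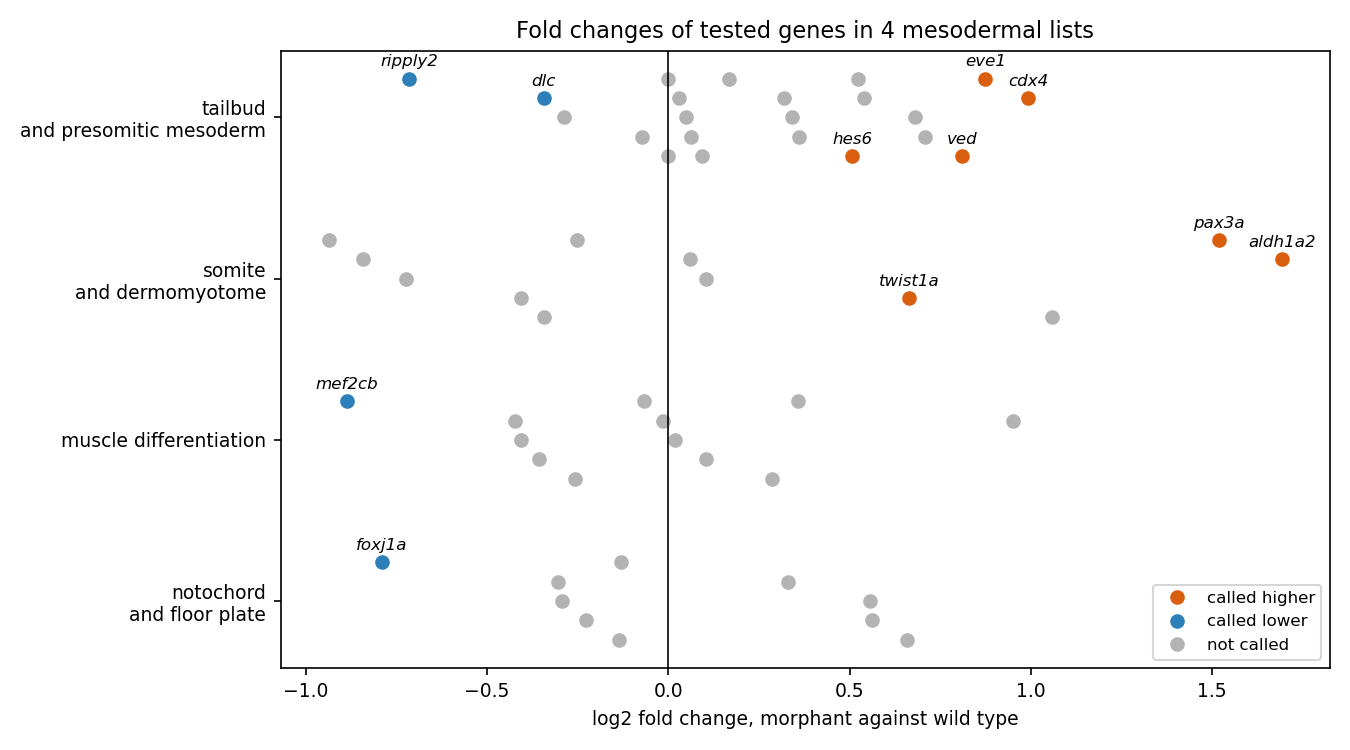
Log2 fold changes of morphant against wild type for the tested genes of 4 lists, without the members themselves (22, 12, 12 and 10 genes). Each point is a gene, spread vertically to keep points apart, with called genes coloured and named. The tailbud list has 4 genes called higher and 2 lower, the somite list 3 higher, and the muscle and notochord lists 1 lower each.

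Markers of the other cell types that the sort could hold were counted beside the same shares over all tested genes, 4.85% called higher and 6.05% lower. Of 6 blood and vascular genes 4 were called lower, and their summed level was 2398 to 3121 CPM in wild type and 1986 to 2077 CPM in morphants. Fits with samples left out called 1 to 5 of them, with 2 without morphant replicate 3 and 1 without both replicates numbered 1. Of 4 tested genes of the endoderm list 2 were called higher, *gata5* and *gata6*, which lateral mesoderm also expresses, with sums of 51.7 to 72.4 and 92.7 to 109 CPM. Without morphant replicate 1, 2 or 3 this list had 1 call each, and 0 without both replicates numbered 1. The nephric list had 2 of 10 genes higher and 2 lower, and its sums of 2726 to 2917 and 2221 to 2796 CPM overlapped. With samples left out it had 1 to 4 genes higher (1 without morphant replicate 1 or 2) and 1 or 2 lower.

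The OEPD (0 of 14 higher, 1 lower), neural (0 of 13 higher, 1 lower) and epidermal lists (0 of 7 higher, 1 lower) had overlapping sums and, in edgeR with all samples, few calls. The OEPD count depended on the samples used, with 5 lower without wild-type replicate 3 and 8 lower without both replicates numbered 3, a setting that called 4 neural and 4 epidermal genes lower. The OEPD count was 0 without morphant replicate 1 or 2 or both replicates numbered 1, and with no filter on low counts it was 5 lower and 1 higher. Without wild-type replicate 2, or without both replicates numbered 2, it was 2 higher and 1 lower. *atoh1b* was listed at 0 in all samples. In the table it lies on an unplaced scaffold, and the study describes mapping to placed chromosomes alone, so that the 0 does not measure its expression. The part of such shifts in the levels of *tbx16* and the mesodermal lists was not tested.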

How the data were processed

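RNA of FACS-sorted *pax8*:DsRed-positive cells was sequenced from 3 wild-type and 3 morphant samples. The authors deposited raw read counts per Ensembl gene, made with featureCounts and not normalized. The submitters' processing notes name featureCounts 1.5.2 and GRCz10, whereas the published methods name another version, build and library kit. The strand setting of the counting is not given in the sources used here. The 92 spike-in features had 0 counts and were left out. Symbols were paired for 26433 of 32266 identifiers. *dld* was left out because its name was ambiguous.

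Counts were filtered (filterByExpr, minimum count 10), normalized (TMM) and tested with edgeR 4.0.16 in R 4.3.3 (quasi-likelihood, replicate number as a block, Benjamini-Hochberg adjusted p below 0.1). The study controlled for a clutch effect, but the labels do not say that same-numbered samples share a clutch. The SE is the log2 fold change divided by the square root of F. CPM in log2 ratios used a prior count of 2. The code was tested on simulated data. Replicates are described as biological, and libraries of a group differed by more than sampling noise. The named genes are the members, the 3 most alike genes of each (mean count at least 100) and genes of each list. Up to 4 genes of each list were planned, by lowest p in each direction. Some of the planned genes are not named, and others were added after their values were seen. The members and lists were chosen with earlier results of these data known. Alternatives were DESeq2 1.42.0, no block, RLE factors, other filters, an adjusted p below 0.05, other prior counts (0.5 and 5) and leaving out samples.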

Additional observations from a re-analysis of the deposited data

How the results depend on the processing

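*tbx16* was called in 6 of 6 alternatives that used all samples, at adjusted p from 0.000642 to 0.0942 (edgeR or DESeq2), but in 3 of 9 fits with samples left out. There its log2 fold change ranged from 0.39 to 0.88 and its adjusted p from 4.53e-06 to 0.455. The call was lost without both replicates numbered 1 (log2 fold change 0.48, adjusted p = 0.455) or 2 (0.41, 0.222), and without wild-type replicate 1 (0.65) or 2 (0.42) or morphant replicate 1 (0.39) or 2 (0.61). *tbxta* gained the call with DESeq2 without the block (log2 fold change 0.36), with no filter on low counts (0.35), without both replicates numbered 3 (0.50) and without morphant replicate 3 (0.44), and ranged from 0.25 to 0.50 with samples left out. The cause of these changes was not tested. Without both replicates numbered 2, the log2 fold changes of *myod1* and *myf5* turned to −0.13 and −0.050, and they reached 1.01 and 0.58 in other fits with samples left out. That of *msgn1* ranged from −0.32 to 0.045 (−0.30 to 0.027 with both replicates of a number left out), and was positive without both replicates numbered 3 and without morphant replicate 3 (0.045). Members called higher numbered 2 with DESeq2 without the block and with no filter, 0 at an adjusted p below 0.05, and 0 to 2 with samples left out. Genes called numbered 1911 in the main fit, 2953 with DESeq2 without the block, 997 at an adjusted p below 0.05, and 185 to 3955 with samples left out (1263 without wild-type replicate 1, 985 and 932 without morphant replicate 1 and 2). The 3 ratios kept their direction under both other prior counts.

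The replicate numbers were not shown to pair the samples, since the correlation of deviations between same-numbered samples was 0.16, 0.05 and −0.14. Without the replicate block edgeR called 2405 genes, and the log2 fold changes of *tbx16*, *tbxta*, *myf5* and *myod1* changed no call (adjusted p = 0.0942 for *tbx16* and 0.104 for *tbxta*). Fits that left out a single sample had no block. A group left with 2 samples shared its spread with the other group. With 22 to 73 counts per sample, depth limits what can be said of *myod1*.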
